A study of Mus musculus with 8 samples.

Results

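The mitochondrial import and carrier genes described here are the 74 gene symbols that begin with Timm, Tomm or Slc25a in expression tables of 51822 symbols. The rule reads gene names and no measured values, and 1 pseudogene entry of the same naming was left out. They divide into 16 Timm, 11 Tomm and 47 Slc25a symbols. Chosen by name, they include some that are not import or carrier genes. Tomm6os is an antisense RNA gene, Tomm34 encodes a cytosolic cochaperone and Timmdc1 an assembly factor of respiratory complex I. RNA sequencing was performed on mouse osteoblast progenitors in osteogenic medium, which contained ascorbic acid, dexamethasone and β-glycerophosphate in every group. DMSO, the solvent, served as the control for LAMZ (locamidazole, an aminoindazole derivative) at 1 μM. Each treatment was sampled at day 7 and at day 14, which gives 4 groups of 2 libraries. The sample labels name MC3T3-E1, an osteoblastic cell line from mouse calvaria, whereas the methods name cultured calvarial cells. Nothing in the labels says that the 2 libraries of a group came from separate cultures, so the p values measure the spread between these libraries, which may be technical.

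Levels are given as RPKM, the reads of a gene scaled to its length and to the mapped reads of its library. An order of genes by RPKM therefore depends on the gene lengths used. The libraries held 3463538 to 5832101 mapped reads, recovered from the steps of the low values. The 10 osteoblast markers examined summed to an RPKM of 7203 to 18898 in every library. Macrophage markers were also present in the control cultures. The 13 measured markers summed to 465.2 and 605.7 in the day 7 control libraries and to 1134 and 1178 in the day 14 control libraries, against 7.2 to 9.3 in the 4 libraries of LAMZ-treated cells. All 13 were lower in both libraries of LAMZ-treated cells on each day, and C1qa, C1qb, C1qc, Tyrobp and Laptm5 were at 0 in all of these. In bulk RNA, fewer cells of a type and less RNA per cell cannot be told apart.

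Most mitochondrial proteins are encoded in the nucleus, made in the cytosol and imported. The TOM complex is the entry gate of the outer membrane. Behind it, the TIM23 complex takes up proteins with a cleavable presequence, whereas small TIM chaperones escort hydrophobic proteins across the intermembrane space to the TIM22 complex, which inserts them into the inner membrane. Most Slc25a carriers are typical clients of the TIM22 route, and these exchange nucleotides, phosphate, metabolites, cofactors and iron across the inner membrane. Osteoblasts make large amounts of secreted matrix and draw on both glycolysis and mitochondrial respiration.

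These genes were widely expressed in the cultures. Of the 74, 58 reached an RPKM of 1 in at least 2 libraries (78.4%, against 24.1% of all symbols) and were tested. The list of all symbols also holds pseudogenes and noncoding RNA genes, whereas all of the 74 except Tomm6os are annotated as protein-coding. These shares are thus not of like sets of genes. The 58 comprised 15 Timm, 9 Tomm and 34 Slc25a symbols, with a median level of 5.69 RPKM, against 4.24 over all 12514 genes tested. The other 16 never exceeded an RPKM of 1.39, with 0 to 47 reads in a library, and no symbol was at 0 in every library. Among these 16 were Slc25a31, the testis form of the ADP/ATP carrier, with 0 to 3 reads, and Tomm20l and Timm8a2, with at most 1 and 2 reads.

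By RPKM, the ADP/ATP carriers dominated the Slc25a family. Slc25a4 and Slc25a5, which export ATP in exchange for ADP, had mean levels of 91.0 and 74.1 RPKM over the 8 libraries and together made up 41.1% to 46.9% of the summed Slc25a level in a library. Next by RPKM came Slc25a1, the citrate carrier, at 30.5 RPKM, which lay within the range of several import genes. Among these, Tomm22, the central receptor of the TOM complex, averaged 27.6 RPKM, Timm23, the channel of the TIM23 complex, 26.2 RPKM, and the small TIM chaperones Timm8b and Timm13 25.9 and 25.8 RPKM. Tomm22 ranged from 21.2 to 45.3 RPKM between libraries and the other 3 also overlapped, so the order of these 4 was not resolved. The small subunits Tomm6 and Tomm5 averaged 24.2 and 20.1 RPKM. The phosphate carrier Slc25a3 averaged 23.9 RPKM at a length of 5550 bases, against 2176 bases for Slc25a1. In reads, Slc25a3 had 495 to 812 in a library, Slc25a1 253 to 397 and Slc25a5 432 to 805. The order of these carriers thus depends on the lengths used.

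In the GENCODE M21 annotation of GRCm38, 12 of the genes described below lie on 8 chromosomes. Timm8a1 (chrX:134537256-134541865, minus strand) and Slc25a5 (chrX:36795651-36798807, plus strand) are among the 6 X-linked genes of the 74. Chromosome 8 holds Slc25a4 (46206797-46211284, minus strand), Slc25a42 (70184340-70212305, minus strand) and Tomm20 (126930667-126945844, minus strand). Chromosome 19 holds Slc25a45 (5877808-5885878, plus strand) and Slc25a28 (43663801-43674881, minus strand). Timm10b lies at chr7:105640056-105643637 on the plus strand, Timm23 at chr14:32180162-32201898 on the minus strand, Tomm7 at chr5:23838944-23844161 on the minus strand, Slc25a13 at chr6:6041218-6217173 on the minus strand and Slc25a39 at chr11:102402985-102407946 on the minus strand. Of the 74 genes, 24 overlap an exon of a gene on the other strand, and strand use in counting is not stated.

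Promoter sequences were read from RefSeq on GRCm38.p6 for 60 of the 74 genes. The ETS motif CCGGAAG, which GABP binds, occurred on either strand in the 250 bases before the start of 15 of these 60 genes (25.0%), and in 7.83% of all 27025 genes with such a sequence. The 27025 genes were not limited to expressed ones. Median GC content was 57.6% in the promoters of these 60 genes and 52.4% in all promoters. The part of expression and GC content in the motif shares was not tested. The NRF1 motif, GCGCA and GCGC with 1 base between, occurred in 3 of the 60 (5.0%, against 4.23% of all genes), namely Slc25a3, Slc25a31 and Tomm20. Both factors are known regulators of nuclear genes for mitochondria. Of the 11 genes that had a promoter sequence and passed the test for LAMZ on a day or on average, Timm23 alone held the ETS motif and Tomm20 alone the NRF1 motif. A match is a description of the letters and not of binding. The sequences below show these 2 motif-bearing promoters, the ETS-bearing promoters of Tomm22, Timm8b and Slc25a3, which are highly expressed members, and for contrast that of Slc25a45, the carrier with the largest fall, which held none of the 7 motifs searched. Capitals mark the motifs, and bases inside the annotated gene are left out.
Timm23, chr14:32201899-32202141, minus strand: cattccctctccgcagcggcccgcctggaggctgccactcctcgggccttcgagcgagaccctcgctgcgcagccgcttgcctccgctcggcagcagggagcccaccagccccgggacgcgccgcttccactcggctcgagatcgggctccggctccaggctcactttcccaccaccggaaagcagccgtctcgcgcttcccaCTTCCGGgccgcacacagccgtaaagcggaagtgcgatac
Tomm20, chr8:126945922-126946171, minus strand: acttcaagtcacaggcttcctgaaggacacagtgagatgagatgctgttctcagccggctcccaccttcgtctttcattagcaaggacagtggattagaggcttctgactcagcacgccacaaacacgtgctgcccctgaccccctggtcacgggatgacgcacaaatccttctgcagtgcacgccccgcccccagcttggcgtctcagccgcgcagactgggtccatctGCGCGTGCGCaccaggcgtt
Tomm22, chr15:79670618-79670860, plus strand: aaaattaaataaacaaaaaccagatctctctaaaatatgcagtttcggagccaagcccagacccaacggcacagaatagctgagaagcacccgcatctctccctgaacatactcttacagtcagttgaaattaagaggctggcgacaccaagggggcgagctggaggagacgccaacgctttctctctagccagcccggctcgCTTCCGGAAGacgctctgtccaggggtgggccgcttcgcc
Timm8b, chr9:50603651-50603900, plus strand: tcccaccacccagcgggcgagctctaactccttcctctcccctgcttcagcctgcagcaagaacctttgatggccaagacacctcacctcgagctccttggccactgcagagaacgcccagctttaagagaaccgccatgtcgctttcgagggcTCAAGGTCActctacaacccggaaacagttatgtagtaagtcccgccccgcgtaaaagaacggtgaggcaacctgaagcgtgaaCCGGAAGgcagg
Slc25a3, chr10:91124060-91124217, minus strand: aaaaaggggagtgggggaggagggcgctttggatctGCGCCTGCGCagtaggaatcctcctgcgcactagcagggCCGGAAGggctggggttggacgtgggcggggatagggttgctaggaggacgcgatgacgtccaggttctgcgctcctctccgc
Slc25a45, chr19:5877572-5877807, plus strand: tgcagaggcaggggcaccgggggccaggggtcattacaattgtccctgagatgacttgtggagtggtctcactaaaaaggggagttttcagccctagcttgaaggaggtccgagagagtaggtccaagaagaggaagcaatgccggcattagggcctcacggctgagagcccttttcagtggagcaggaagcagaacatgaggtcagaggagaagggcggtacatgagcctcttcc
In Tomm22, a pair of overlapping ETS motifs on opposite strands forms 1 run of capitals. In Timm8b, the first run is the motif TCAAGGTCA of the estrogen-related receptors, found in 0.422% of all genes, and the second is the ETS motif. In Slc25a3, the first run is the NRF1 motif and the second the ETS motif. Of the remaining motifs searched on both strands, CRE (TGACGTCA) occurred in Slc25a25 and Slc25a36 (3.33% against 1.77% of all genes) and MEF2 (CTA and TAG with 4 bases between) in Slc25a10 and Slc25a22 (3.33% against 3.70%). YY1 (AAGATGGC, 1.83% of all genes) and ATF4 (TGATGNAAT, 0.910%) occurred in none of the 60.

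The comparison of LAMZ with control asks how the compound altered these genes during osteoblast differentiation. At day 7, 2 of the 58 tested genes rose, Timm21 and Slc25a13, and 3 fell, Slc25a45, Slc25a28 and Slc25a42 (limma on log2(RPKM + 1), Benjamini-Hochberg adjusted p under 0.05). Over all tested genes, 12.8% passed, 4.35% upward and 8.49% downward. At day 14, 6 rose, Timm8a1, Tomm7, Timm10b, Slc25a5, Tomm20 and Timm23, and Slc25a45 and Slc25a42 fell, while 23.0% of all tested genes passed, 6.96% upward and 16.0% downward. Averaged over the days, 6 rose and 4 fell, against 29.5% of all tested genes, 9.12% upward and 20.3% downward. As shares of the 58, the genes that passed were 8.62% at day 7, 13.8% at day 14 and 17.2% on average. The count at day 7 was 0 without day 7 LAMZ replicate 2, that at day 14 was 2 without day 14 control replicate 2, and that on average was 4 without day 7 LAMZ replicate 2.

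The direction of these counts depended on the scaling between libraries. With every library rescaled to the same sum of RPKM, which moved the median log2 fold change of all tested genes from −0.08 to −0.31 at day 7 and from −0.15 to −0.43 at day 14, the split was 0 up and 16 down at day 7, 1 up and 15 down at day 14 and 1 up and 27 down on average. With each library centred on its median gene, it was 3 up and 1 down, 9 up and 2 down, and 10 up and 2 down. With quantile normalization it was 2 up and 1 down, 9 up and 2 down, and 8 up and 2 down. With the 20 most abundant genes left out of the common sum, it was 2 up and 6 down, 4 up and 5 down, and 3 up and 11 down. As deposited, the median log2 fold change of the 58 genes was −0.03 at day 7 and 0.04 at day 14.

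Across the 58 genes, the fold changes of the 2 days, which share no libraries, correlated at a Pearson's r of 0.464, against 0.657 over all tested genes, and genes are not independent replicates. Values lay above 0 on both days for 20 genes, below 0 on both for 16 and on opposite sides for 22. The libraries of LAMZ-treated cells lay entirely above the control libraries for 10 of the 58 genes at day 7 and entirely below for 18, against 20.4% and 35.9% of all tested genes. At day 14 the counts were 19 above and 13 below, against 20.1% and 44.2% of all tested genes. The groups separated in opposite directions on the 2 days for 4 genes, against 6.62% of all tested genes.

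**Figure D1:**
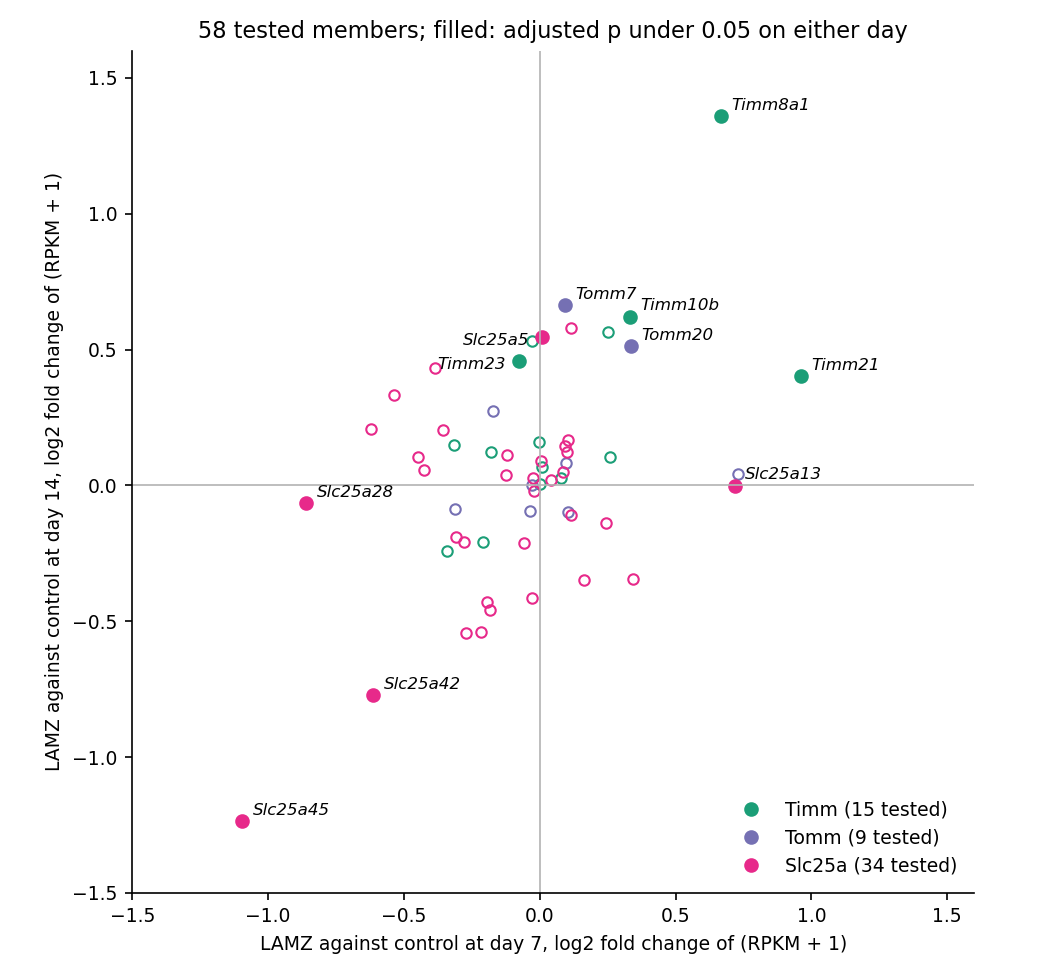
Each point is 1 of the 58 tested genes, placed by its log2 fold change of (RPKM + 1) for LAMZ against control at day 7 (x axis) and day 14 (y axis), and filled where at least 1 of these changes passed the test. Slc25a45 and Slc25a42 lie at the lower left on both days, Timm8a1 at the top, and 22 genes change side between the days.

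The small TIM chaperones stood on the higher side of control at day 14. Timm8a1, which pairs with Timm13 in the intermembrane space and whose human counterpart is mutated in deafness-dystonia syndrome, was at 2.23 and 1.56 RPKM in the day 14 control libraries and at 6.40 and 6.34 RPKM in those of LAMZ-treated cells. It rose by 1.36 ± 0.26 on the log2 scale (SE, adjusted p = 0.00777), on 10 to 53 reads. At day 7 the control libraries were far apart, at 4.85 and 2.24 RPKM, both below the 5.61 and 6.21 RPKM of LAMZ-treated cells, and the difference of 0.67 ± 0.26 did not pass (adjusted p = 0.137).

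Timm10b, a small TIM that sits on the TIM22 complex, was at 2.60 and 3.15 RPKM in day 14 control and 4.21 and 5.78 RPKM with LAMZ. It rose by 0.62 ± 0.18 (adjusted p = 0.0416). Its exons overlap those of Arfip2 on the other strand and of Gm45799 on the same strand, and how reads in shared sequence were assigned is not stated. Timm9 and Timm10, which form the hexamer that carries inner membrane proteins, did not pass. Timm9 was at 1.71 and 1.35 RPKM in day 14 control and 3.20 and 2.32 RPKM with LAMZ (0.56 ± 0.19, adjusted p = 0.0658), and Timm10 was at 4.57 and 7.06 against 9.68 and 7.79 RPKM (0.53 ± 0.21, adjusted p = 0.112). Timm8b and Timm13, of highest RPKM in the group, differed by 0.10 ± 0.14 and 0.16 ± 0.19.

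In all, both libraries of LAMZ-treated cells lay above both controls at day 14 for 6 of the 6 tested small TIM genes, 2 of which passed the test, with a median log2 fold change of 0.55. Over all tested genes, 20.1% lay entirely above control at day 14, 6.96% passed upward and the median was −0.15. Fold changes of all 6 were above 0 as deposited and under 3 of the 4 other scalings, but Timm8b and Timm13 lay below 0 when libraries were rescaled to the same sum. At day 7 none of the 6 passed and the median was 0.26. From day 7 to day 14 in control, 5 of the 6 lay below 0 and none passed. The median there was −0.18, against −0.05 over all tested genes. With LAMZ, 3 of the 6 lay below 0, with a median of 0.04. The day 14 control libraries enter both comparisons, so the change over time in control and the difference at day 14 are not independent. The call for Timm8a1 at day 14 was kept under all 13 alternative settings and lost without day 14 control replicate 2 (adjusted p = 0.0578). That for Timm10b was kept under 8 of 13 settings and in 3 of 8 fits that each left out 1 library (adjusted p 0.0412 to 0.225).

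**Figure D2:**
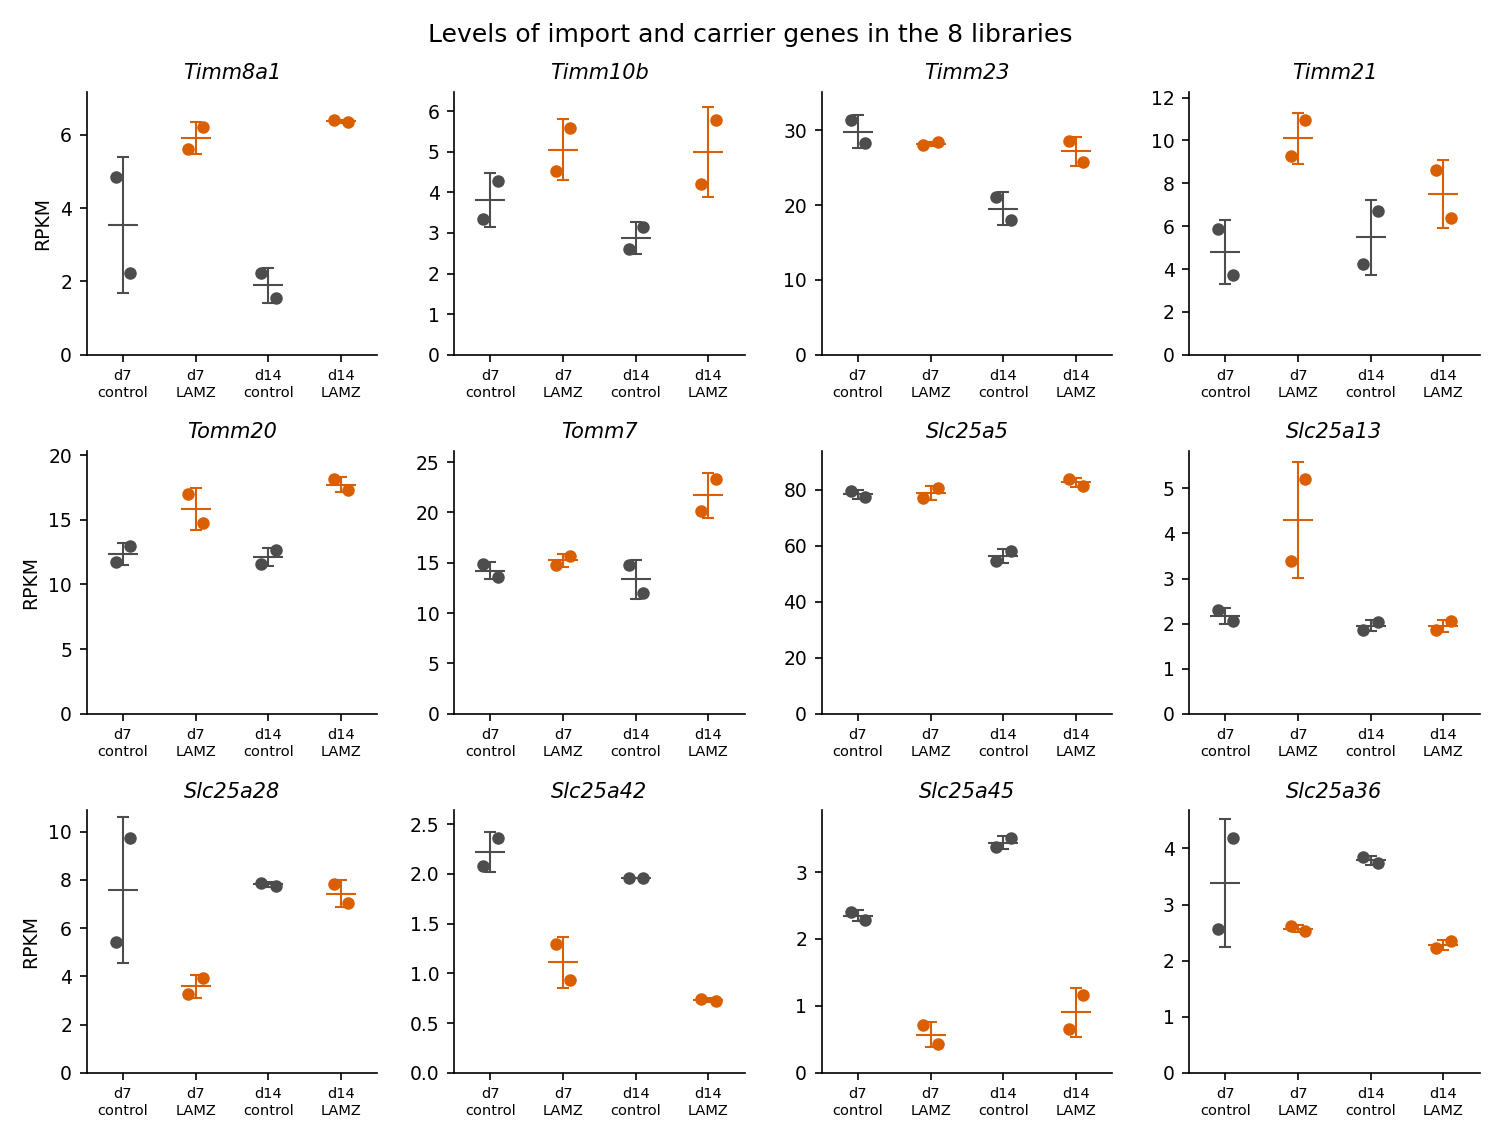
RPKM of 12 of the 13 genes that passed the test for LAMZ at day 7, at day 14 or on average, in each library (points), with the mean and SD of the 2 libraries (bars), for control (grey) and LAMZ-treated cells (orange). Timm8a1, Timm10b, Timm23, Tomm20, Tomm7 and Slc25a5 lie higher with LAMZ at day 14, and Slc25a42 and Slc25a45 lie lower on both days.

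Within the TIM23 complex, 1 of the 6 tested genes rose at each day, against 4.35% of all tested genes at day 7 and 6.96% at day 14. Timm21, a subunit that links TIM23 to the TOM complex, was at 5.85 and 3.73 RPKM in day 7 control and 9.27 and 10.9 RPKM with LAMZ, a rise of 0.96 ± 0.25 (adjusted p = 0.0413). At day 14 its levels of 4.25 and 6.73 RPKM in control and 8.61 and 6.39 RPKM with LAMZ overlapped (0.40 ± 0.25, adjusted p = 0.277), and on average over the days it passed (0.68 ± 0.17, adjusted p = 0.0211). Timm23, the channel, was at 31.3 and 28.3 RPKM in day 7 control and 28.0 and 28.4 RPKM with LAMZ, without passing (−0.08 ± 0.12, adjusted p = 0.737). At day 14 it was at 21.1 and 18.0 RPKM in control and 28.5 and 25.8 RPKM with LAMZ, a rise of 0.46 ± 0.12 (adjusted p = 0.0326). The day 14 controls of Timm23 lay below the other 6 libraries. The difference between the days passed for neither gene (adjusted p = 0.461 for Timm21 and 0.194 for Timm23).

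Timm17a and Timm17b, which build the channel together with Timm23, Timm44, which tethers the import motor, and Timm50, the receptor, differed by −0.18 to 0.12 on the 2 days, and none passed. Timm17b had the higher RPKM of the Timm17 pair, at 1.30 to 1.86 times that of Timm17a in each library. The lengths used were 2557 bases for Timm17b and 7893 for Timm17a. Reads were more for Timm17a, at 100 to 172 in a library against 51 to 92, so the order within the pair depends on these lengths. For the TIM22 complex, both genes lay below control in both libraries on both days. Of all tested genes, 35.9% lay entirely below control at day 7 and 44.2% at day 14. The fold changes of both TIM22 genes were below 0 under each of the 4 other scalings, but their size depended on the scaling. Their median log2 fold change at day 14 was −0.23 as deposited, −0.035 with median centring and −0.059 with quantile normalization. With rescaling to the same sum it was −0.55. Timm22, the insertase, was at 6.42 and 6.35 RPKM in day 7 control against 4.64 and 5.01 RPKM with LAMZ, and at 5.38 and 5.21 against 4.69 and 3.99 RPKM at day 14. It passed only as an average over the days (−0.29 ± 0.08, adjusted p = 0.0327), and Timm29 did not pass in any of these (−0.21 ± 0.09 on average, adjusted p = 0.139). The average call of Timm22 was lost with median centring and with quantile normalization, among others. The Timm21 call at day 7 was kept under 8 of 13 settings, the Timm23 call at day 14 under 9 of 13, and the average call of Timm22 under 7 of 12, and each was lost in 5 or more of the 8 fits without 1 library.

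At the outer membrane, 2 of the 8 tested TOM genes rose at day 14 and none at day 7, against 6.96% and 4.35% of all tested genes. Tomm7, a small subunit that regulates the assembly of the complex, was at 14.7 and 12 RPKM in day 14 control and 20.1 and 23.3 RPKM with LAMZ, a rise of 0.66 ± 0.14 (adjusted p = 0.0111). At day 7 its 4 libraries lay between 13.6 and 15.7 RPKM. Tomm20, the presequence receptor, was at 11.6 and 12.6 RPKM in day 14 control and 18.1 and 17.3 RPKM with LAMZ, a rise of 0.51 ± 0.12 (adjusted p = 0.0195). At day 7 it was at 11.7 and 12.9 against 17.0 and 14.7 RPKM, again without overlap, but did not pass (0.34 ± 0.12, adjusted p = 0.115).

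The other 6 TOM genes did not pass on either day. Tomm40, the channel, differed by −0.17 ± 0.19 at day 7 and 0.27 ± 0.19 at day 14, and Tomm70a, the receptor for carriers, by 0.10 ± 0.16 and 0.08 ± 0.16. Tomm22 was at 45.3 RPKM in 1 day 7 control library and between 21.2 and 28.4 RPKM in the other 7, and Tomm5 was at 11 RPKM in the other day 7 control library and between 17.2 and 28.6 RPKM elsewhere. Of the 8 TOM genes, 6 were above 0 at day 14 as deposited, 8 with median centring and 2 with rescaling to the same sum. Under that rescaling the calls of Tomm20 and Tomm7 at day 14 were lost, and both were kept under the other 12 settings. Without 1 library, Tomm20 kept its call in 4 of 8 fits and Tomm7 in 6 of 8.

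**Figure D3:**
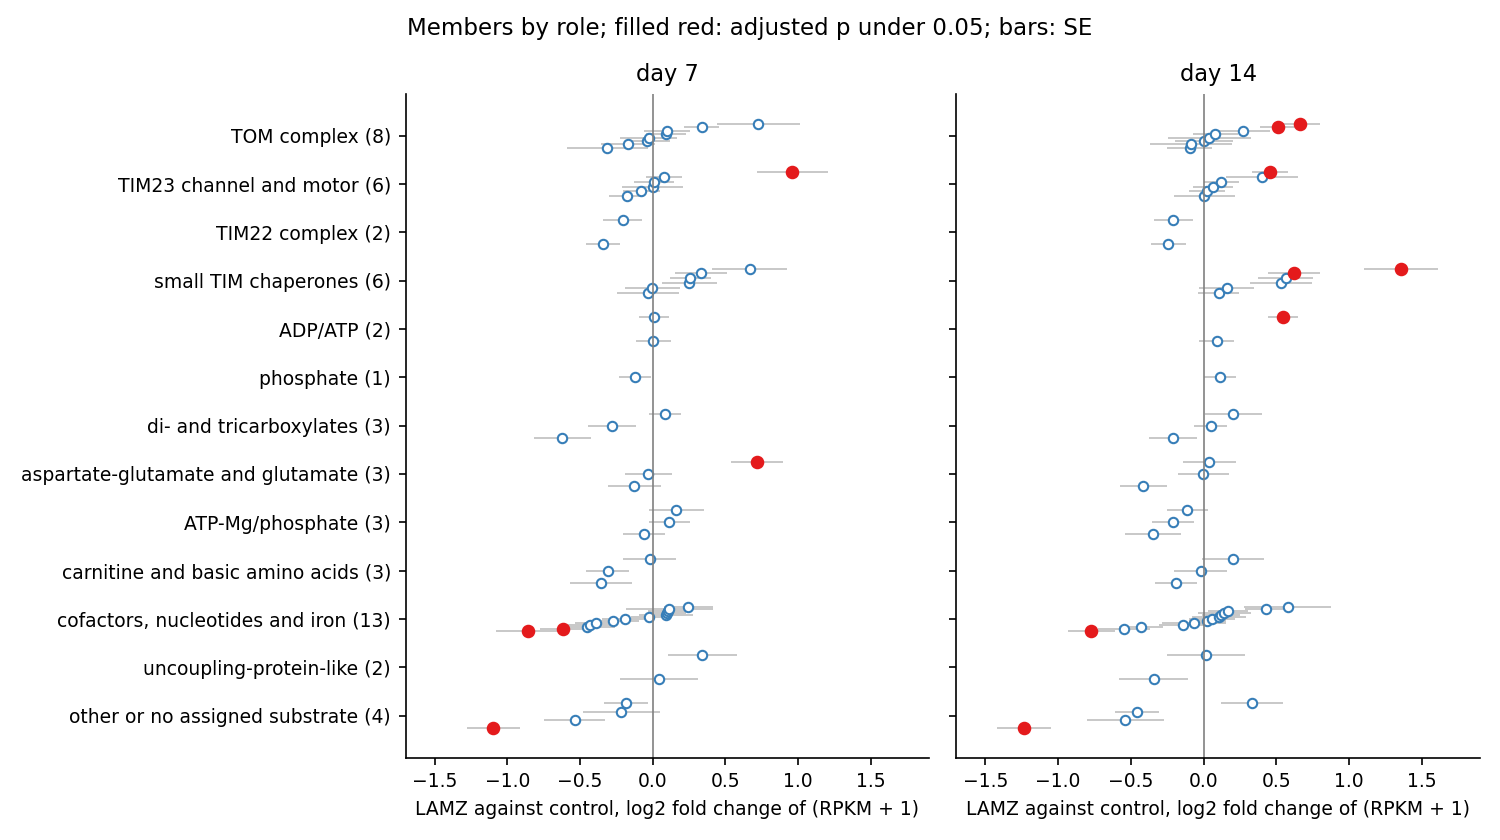
Log2 fold change of (RPKM + 1) with its SE for each tested gene, grouped by role (number tested in brackets), for LAMZ against control at day 7 (left) and day 14 (right). Filled red points passed an adjusted p of 0.05; at day 14 the 6 small TIM chaperones lie above 0 and both TIM22 genes below 0.

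Among the nucleotide carriers, the abundant Slc25a5 rose and its close relative Slc25a4 did not pass. Slc25a5, the form known from proliferating cells, was at 79.6 and 77.4 RPKM in day 7 control and 77.2 and 80.8 RPKM with LAMZ (0.01 ± 0.11, adjusted p = 0.970). At day 14 it was at 54.5 and 58.1 RPKM in control and 83.9 and 81.5 RPKM with LAMZ, a rise of 0.55 ± 0.11 (adjusted p = 0.00827). As with Timm23, the day 14 controls lay below the other 6 libraries, which spanned 77.2 to 83.9 RPKM. Slc25a4, the form of heart and muscle, lay between 83.4 and 97.8 RPKM throughout (0.09 ± 0.12 at day 14, adjusted p = 0.627). The ratio of Slc25a5 to Slc25a4 within a library was accordingly 0.654 and 0.633 in day 14 control and 0.814 to 0.906 in the other 6 libraries, a measure that no linear scaling between libraries alters. With 2 libraries a group, an exact permutation test of this ratio cannot give a two-sided p below 0.333, and the difference between the carriers was not tested. Slc25a5 has processed copies in the genome, and whether reads shared with them were counted is not stated. Its call at day 14 was lost with rescaling to the same sum and without day 14 LAMZ replicate 1 (adjusted p = 0.0539). The phosphate carrier Slc25a3 stayed within 22.4 to 26.7 RPKM.

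**Figure D4:**
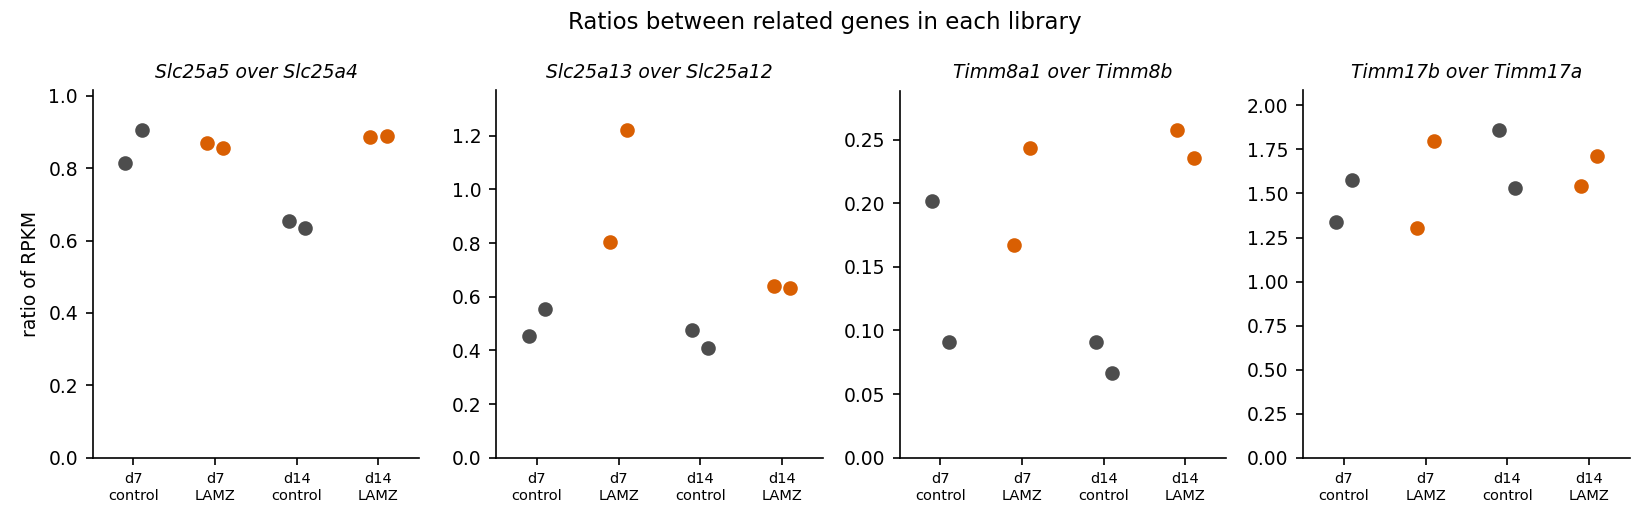
Ratio of RPKM between pairs of related genes in each library, for control (grey) and LAMZ-treated cells (orange) at day 7 (d7) and day 14 (d14). Slc25a5 over Slc25a4 is lowest in the 2 day 14 control libraries, Slc25a13 over Slc25a12 highest in the 2 libraries of LAMZ-treated cells at day 7, and Timm17b over Timm17a shows no separation by group.

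Slc25a45 and Slc25a42 were the members that fell on both days. Slc25a45, a carrier to which no substrate is assigned here, was at 2.40 and 2.29 RPKM in day 7 control and 0.708 and 0.435 RPKM with LAMZ, a fall of 1.10 on the log2 scale (−1.10 ± 0.18, adjusted p = 0.00788). At day 14 it was at 3.37 and 3.51 RPKM in control and 0.647 and 1.16 RPKM with LAMZ (−1.23 ± 0.18, adjusted p = 0.00266). These values rest on 21 to 48 reads in a control library and 6 to 15 reads in a library of LAMZ-treated cells. The calls were kept under all 12 alternative settings on each day, and only that at day 7 was lost without 1 library, namely day 7 LAMZ replicate 2 (adjusted p = 0.0560).

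Slc25a42, which carries coenzyme A into mitochondria, was at 2.08 and 2.36 RPKM in day 7 control and 1.29 and 0.928 RPKM with LAMZ (−0.61 ± 0.16, adjusted p = 0.0443). At day 14 it was at 1.96 in both control libraries and at 0.744 and 0.717 RPKM with LAMZ (−0.77 ± 0.16, adjusted p = 0.0115). The groups did not overlap on either day. The day 7 call was lost with median centring and with quantile normalization, among others. The day 14 call was kept under 12 of 12 settings but in 4 of the 8 fits without 1 library, and was lost without any 1 of the 4 day 14 libraries (adjusted p up to 0.0631). The day 7 call was kept under 7 of 12 and in none of the fits without 1 library (adjusted p 0.0671 to 0.198).

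Both carriers were lower with LAMZ, as were the macrophage markers, at 7.2 to 9.3 RPKM in sum with LAMZ and above 465 in control. The marker sum separates the libraries by treatment, as does any gene that lies entirely lower with LAMZ. Of all tested genes, 35.9% did so at day 7 and 44.2% at day 14. Slc25a45 was 1.47 times as high in day 14 control as in day 7 control, and the marker sum 2.16 times. Slc25a42 was at 0.881 times, with 2 control libraries on each day. Over all 8 libraries, on the log2 scale, Pearson's r with the marker sum was 0.963 for Slc25a45 and 0.925 for Slc25a42. Of all tested genes, the 3 most alike over the 8 libraries were C4b, Col18a1 and Cpxm1 for Slc25a45. For Slc25a42 they were Prdx1, Trio and Arhgap20. None of these is among the markers. Ucp2 (uncoupling protein 2), a carrier of the same fold that is abundant in macrophages and bears no Slc25a symbol in these data, was also lower with LAMZ. It was at 2.09 and 3.72 RPKM in day 7 control and 0.570 and 0.522 RPKM with LAMZ (−1.30 ± 0.25, adjusted p = 0.0148), and at 3.94 and 4.94 against 0.368 and 0.967 RPKM at day 14 (−1.72 ± 0.25, adjusted p = 0.00257). The part of the macrophage markers in these differences was not tested.

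**Figure D5:**
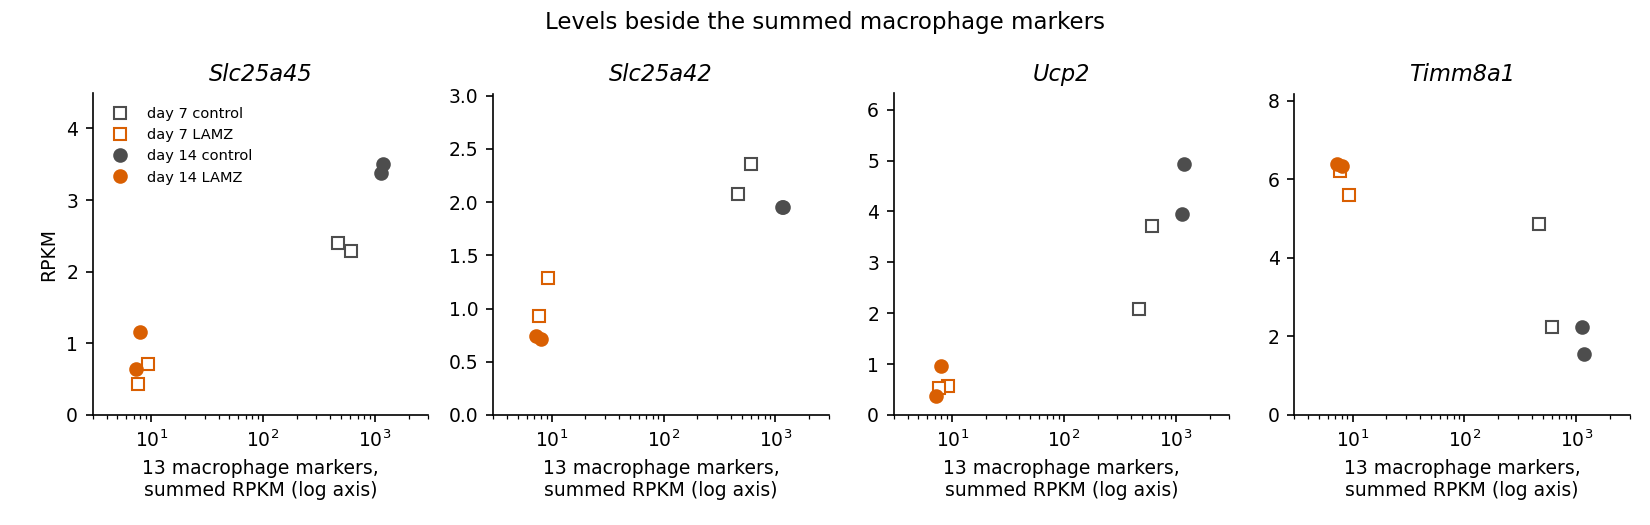
RPKM of Slc25a45, Slc25a42, Ucp2 and Timm8a1 (y axes) beside the summed RPKM of 13 macrophage markers (x axis, log scale) in each of the 8 libraries. The 4 libraries of LAMZ-treated cells lie at 7.2 to 9.3 on the x axis and the 4 control libraries at 465.2 to 1178; the first 3 genes are higher in the controls and Timm8a1 is lower.

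Slc25a13 and Slc25a28 passed at day 7 and not at day 14, and the difference between the days passed for neither (adjusted p = 0.217 and 0.269). Slc25a13 (citrin), the aspartate-glutamate carrier of the malate-aspartate shuttle, was at 2.30 and 2.05 RPKM in day 7 control and 3.40 and 5.21 RPKM with LAMZ, a rise of 0.72 ± 0.18 (adjusted p = 0.0373). At day 14 its 4 libraries lay between 1.85 and 2.05 RPKM. Its relative Slc25a12 (aralar) did not pass on either day, and the ratio of Slc25a13 to Slc25a12 was 0.805 and 1.22 with LAMZ at day 7 and 0.410 to 0.639 elsewhere. Slc25a28 (mitoferrin 2), which brings iron to the site of heme and iron-sulfur cluster synthesis, was at 5.43 and 9.73 RPKM in day 7 control and 3.25 and 3.93 RPKM with LAMZ (−0.86 ± 0.22, adjusted p = 0.0425). At day 14 its 4 libraries lay between 7.03 and 7.87 RPKM. Slc25a37 (mitoferrin 1) stayed within 3.25 to 4.35 RPKM throughout.

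The day 7 call of Slc25a13 was kept under 9 of 12 settings and that of Slc25a28 under 6 of 13, and each was kept in 1 of the 8 fits without 1 library, where adjusted p ranged from 0.0312 to 0.178 and from 0.00649 to 0.213. Slc25a36, a pyrimidine nucleotide carrier, passed as an average over the days (−0.41 ± 0.13, adjusted p = 0.0431). It was at 2.57 and 4.18 RPKM in day 7 control against 2.61 and 2.52 RPKM with LAMZ, which overlapped, and at 3.84 and 3.74 against 2.22 and 2.35 RPKM at day 14. The related Slc25a33 was at 1.97 and 2.23 RPKM in day 14 control and 4.45 and 2.93 RPKM with LAMZ, which did not pass (0.58 ± 0.30, adjusted p = 0.203). The average call of Slc25a36 and the day 7 call of Slc25a28 were both lost with median centring and with quantile normalization, among others. The call for Slc25a36 was kept under 7 of 11 settings and in 1 of the 8 fits without 1 library (adjusted p up to 0.112).

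By role, none of the tested genes for di- and tricarboxylates (3), ATP-Mg/phosphate (3), carnitine and basic amino acids (3) or the uncoupling-protein-like carriers (2) passed at either day or on average. Of these, Slc25a10, the dicarboxylate carrier, differed most, at 6.45 and 7.94 RPKM in day 7 control and 3.73 and 4.94 RPKM with LAMZ (−0.62 ± 0.20, adjusted p = 0.0791). Slc25a20, the acylcarnitine carrier needed for fatty acid oxidation, was at 8.09 and 6.08 RPKM in day 7 control and 5.34 and 5.61 RPKM with LAMZ (−0.31 ± 0.15, adjusted p = 0.213). The 13 tested carriers grouped here under cofactors, nucleotides and iron are a broad set that also holds others, such as Slc25a39. Of these 13, 2 fell at day 7 and 1 at day 14, against 8.49% and 16.0% of all tested genes.

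The comparison of day 14 with day 7 follows differentiation within each treatment. In control cells, 3 of the 58 genes fell, and none rose, against 4.86% of all tested genes (2.46% upward, 2.4% downward). They were Slc25a32, the mitochondrial folate carrier (3.96 and 4.22 RPKM at day 7, 2.47 and 2.03 RPKM at day 14, −0.65 ± 0.14, adjusted p = 0.0419), Timm23 (−0.59 ± 0.12, adjusted p = 0.0419) and Slc25a5 (−0.47 ± 0.11, adjusted p = 0.0466). The day 14 control libraries of Timm23 and Slc25a5 also enter the comparison with LAMZ at day 14, so the 2 results are not independent. Entire separation by day was seen for 4 genes upward and 20 downward, against 21.0% and 28.5% of all tested genes. None of the 3 calls was kept in any of the 8 fits that left out 1 library, in which 0 or 1 gene passed, nor with rescaling to the same sum, in which 0 passed.

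In LAMZ-treated cells, 2 genes rose from day 7 to day 14 and 3 fell, against 14.4% of all tested genes (5.1% upward, 9.26% downward). Rescaling to the same sum gave 4 up and 1 down, and median centring and quantile normalization each 3 up and 2 down. Slc25a39, a carrier needed for mitochondrial glutathione, rose from 17.2 and 18.1 to 31.0 and 35.0 RPKM (0.87 ± 0.15, adjusted p = 0.00897), and the call was kept under 13 of 13 settings and in 5 of 8 fits without 1 library. Slc25a28 rose as well (0.88 ± 0.22, adjusted p = 0.0363). Slc25a13 (−0.82 ± 0.18, adjusted p = 0.0209), Slc25a32 (−0.59 ± 0.14, adjusted p = 0.0274) and Slc25a24, a calcium-regulated carrier of ATP-Mg and phosphate (9.50 and 8.45 to 6.15 and 5.01 RPKM, −0.60 ± 0.14, adjusted p = 0.0268), fell. In the fits without 1 library, Slc25a28 kept its call in 2 of 8, Slc25a13 in 5 and Slc25a24 and Slc25a32 in 4 each, and Slc25a32 kept it under 6 of 12 settings. The count of 5 became 0 without day 14 LAMZ replicate 2 and 1 without any 1 of the other 3 libraries of LAMZ-treated cells. Slc25a32 thus fell with time under both treatments, and LAMZ and control did not differ for it beyond the threshold on either day. The 5 cycling-cell markers summed to 51.0 to 53.1 RPKM at day 7 and 14.2 to 23.6 RPKM at day 14, and their part in the time differences was not tested. Tested markers of cell types also moved with LAMZ. At day 14, 2 of 3 adipocyte markers, 2 of 5 cycling-cell markers and the 1 endothelial marker fell, and 2 of 3 skeletal muscle and 6 of 10 osteoblast markers rose. At day 7, the endothelial marker fell, and 1 of 3 skeletal muscle and 6 of 10 osteoblast markers rose. Their part in the differences above was not tested. Separation by day was complete for 14 genes upward and 22 downward, against 21.4% and 41.4% of all tested genes.

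No member passed the test of whether the effect of LAMZ differed between the days in limma, against 0.623% of all tested genes, and 8 had an unadjusted p under 0.05, against 16.5%. The smallest p was that of Slc25a39, at 26.8 and 20.3 RPKM in day 7 control against 17.2 and 18.1 RPKM with LAMZ and at 23.3 and 25.0 against 31.0 and 35.0 RPKM at day 14 (difference of the log2 fold changes 0.82 ± 0.21, adjusted p = 0.129). It was followed by Slc25a5 (0.54 ± 0.15, adjusted p = 0.150) and Timm23 (0.54 ± 0.18, adjusted p = 0.194). With precision weights on the recovered reads (limma voom), Slc25a39 passed (0.85, adjusted p = 0.0309).

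Other genes of mitochondrial import, protein folding and transport were examined as a list of 39, of which 36 were tested. At day 14, 4 of the 36 rose and 3 fell, together 19.4% against 23.0% of all tested genes. Hspa9 (mortalin), the ATPase of the TIM23 import motor, was at 13.1 and 16.8 RPKM in day 14 control and 43.3 and 31.6 RPKM with LAMZ (1.26 ± 0.18, adjusted p = 0.00227). Lonp1, the matrix protease, was at 14.8 and 15.9 against 34.2 and 28.9 RPKM (0.99 ± 0.13, adjusted p = 0.00188). The chaperonin partner Hspe1 (0.65 ± 0.16, adjusted p = 0.0232) and Gfer, the oxidase of the intermembrane space relay (0.55 ± 0.15, adjusted p = 0.0313), also rose. Beside Ucp2, Mtch1 (−0.58 ± 0.12, adjusted p = 0.0101), an outer membrane member of the carrier fold, and Mtx2 (−0.56 ± 0.15, adjusted p = 0.0328), a metaxin of the outer membrane, fell. The call of Mtx2 was kept under 8 of 12 settings and lost with median centring and with quantile normalization, among others. At day 7, Mipep, a presequence peptidase, rose (0.73 ± 0.16, adjusted p = 0.0234) and Ucp2 fell, and the other 34 did not pass, so that 5.56% passed against 12.8% of all tested genes. On average over the days, 7 rose and 4 fell, 30.6% against 29.5%. These included Hspd1, the chaperonin (0.43 ± 0.13, adjusted p = 0.0378), Vdac1, the outer membrane channel (0.28 ± 0.09, adjusted p = 0.0455), and Mpc2, a subunit of the pyruvate carrier, which fell (−0.34 ± 0.10, adjusted p = 0.0336). The call of Mpc2 was lost with median centring and with quantile normalization, and those of Hspd1 and Vdac1 with rescaling to the same sum. Each of these 3 calls was lost in 5 or more of the 8 fits without 1 library.

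Of 14 regulators examined, 12 were tested, and Ppargc1a, which encodes PGC-1α, and Ppargc1b stayed below the filter, at 0.0336 to 0.610 RPKM. Myc, a transcription factor that also acts on mitochondrial genes, rose on both days (14.7 and 17.3 against 42.3 and 46.3 RPKM at day 7, 1.41 ± 0.12, adjusted p = 0.000446). At day 14 it rose by 1.14 ± 0.12 (adjusted p = 0.000613). Atf4, Atf5 and Ddit3, transcription factors of the integrated and mitochondrial stress responses, rose at day 14. Atf4 went from 68.9 and 69.3 to 170 and 157 RPKM (1.23 ± 0.10, adjusted p = 0.000202), Atf5 from 52.8 and 46.9 to 77.0 and 87.0 RPKM (0.71 ± 0.13, adjusted p = 0.00662) and Ddit3 from 14.8 and 15.0 to 60.1 and 47.1 RPKM (1.77 ± 0.26, adjusted p = 0.00249). At day 7 Atf5 fell (−0.54 ± 0.13, adjusted p = 0.0315). That call was kept under 9 of 13 settings and lost with median centring and with quantile normalization, among others. The effect of LAMZ differed between the days for Atf4 (1.04 ± 0.15, adjusted p = 0.0369) and Atf5 (1.25 ± 0.18, adjusted p = 0.0369). Both of these differences were lost in each of the 8 fits without 1 library (adjusted p 0.0592 to 0.151 and 0.0522 to 0.153), with no filter, without the mean-variance trend and with the replicate block. Nrf1, Gabpa, Esrra, Yy1 and Tfam did not pass on either day, with fold changes of −0.35 to 0.12.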

How the data were processed

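Mapping and counting were performed by the authors. Ion Proton reads were mapped in CLC Genomics Workbench to the mouse genome, named mm10 in the submitters' processing notes, and deposited as 1 table of RPKM per library. The version, the annotation, strand use and the treatment of reads with several matches are not given in the sources used here. From the deposited RPKM values, 4 date-like duplicate symbols were removed. The 12514 genes that reached an RPKM of 1 in 2 or more of the 8 libraries were fitted on log2(RPKM + 1) with limma 3.58.1 (R 4.3.3, lmFit and eBayes with trend), with 4 groups in 1 fit and 4 residual degrees of freedom, and two-sided p values were adjusted by Benjamini-Hochberg over all genes tested, with a threshold of 0.05. Fold changes on this scale understate the change of low genes. A gene is said to have risen or fallen, or to have passed, only below this threshold, and ± is the SE of the fit. The script was tested on simulated data. The members and gene lists were chosen with earlier results of these data known. Members were named where they passed in any contrast, were among the 3 highest of a family, were core translocase subunits, ADP/ATP or phosphate carriers, or were paralogs that differed, and other genes where they passed in a LAMZ contrast. Slc25a10, Slc25a20, the members with opposite signs and the regulators that did not pass were named after their values were seen.

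Whole reads were recovered from the RPKM steps, with 93.9% to 95.2% of single-exon values whole within 0.02, and libraries held 3463538 to 5832101 mapped reads, so genes with few reads are imprecise. Genes were placed with GENCODE M21 on GRCm38 and promoters taken from RefSeq on GRCm38.p6. Alternatives changed the pseudocount, filter, scaling, variance model, libraries fitted and replicate block, and left out each library in turn. Those added after the data were seen are precision weights on the recovered reads and the sum without the 20 highest genes.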

Additional observations from a re-analysis of the deposited data

Results flagged for a closer look

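For 4 genes the libraries of LAMZ-treated cells lay on opposite sides of the control libraries at day 7 and day 14, against 6.62% of all tested genes. None passed the limma test of the difference between the days after Benjamini-Hochberg adjustment. Slc25a39, needed for mitochondrial glutathione, had log2 fold changes of −0.39 at day 7 and 0.43 at day 14, a difference of 0.82 (adjusted p = 0.129). Slc25a47 had −0.54 and 0.33, a difference of 0.87 (adjusted p = 0.210), at levels of 0.836 to 2.13 RPKM. Timmdc1, an assembly factor of respiratory complex I despite its name, had −0.31 and 0.15, a difference of 0.46 (adjusted p = 0.344). The phosphate carrier Slc25a3 had −0.12 and 0.11, a difference of 0.23 (adjusted p = 0.494). With 2 libraries in each group, no library could be tested as standing apart from its group.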

How the results depend on the processing

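The number of the 58 genes that passed at day 7, 5 as reported, was 1 with no filter on low values, 2 with an RPKM minimum of 5, 3 without the mean-variance trend, 1 with only the groups compared, 3 with quantile normalization, 16 with rescaling to the same sum and 8 with that sum taken without the 20 highest genes. At day 14 it was 8 as reported and 16 with rescaling to the same sum. On average over the days it was 10, and 6 with no filter and 28 with the same sum. From day 7 to day 14 in control it was 3, and 0 with no filter, 1 without the trend, 0 with only the groups compared and 0 with the same sum. In LAMZ-treated cells it was 5, and 1 with no filter and 3 with only the groups compared. For the difference between days it was 0, and 1 with precision weights. Leaving out 1 library at a time gave 0 to 5 at day 7, 2 to 10 at day 14, 4 to 10 on average, 0 for the difference, 0 to 1 for time in control and 0 to 6 for time with LAMZ, with 0 there without day 14 LAMZ replicate 2. On the average over days, rescaling to the same sum turned Slc25a5 to −0.056 and Vdac1, the outer membrane channel, to −0.051; neither passed there. The cause of these shifts was not tested.

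Same-numbered libraries did not deviate together (r = −0.0166 at day 7 and 0.0158 at day 14), so the numbers give no pairing. With the replicate block, 4 genes passed at day 7, 8 at day 14, 10 on average, 0 for the difference, 1 over time in control (Timm23) and 5 over time with LAMZ. Depth limits the low genes: 10 of the 58 had fewer than 20 reads in at least 1 library.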
